A study of Rattus norvegicus with 6 samples.

Results

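The genes described here are Nefl, Nefm, Nefh, Ina, Uchl1, Map2, Gap43, Stmn2 and Eno2, picked by name as neuronal cytoskeleton, growth and marker genes together with Uchl1. Every probe set that the annotation of the RG_U34A array gives to 1 of these 9 genes was taken, which found 16 of the 8799 probe sets. They covered 7 of the 4736 genes that the annotation names. Stmn2, a stathmin that loosens microtubules in growing axons, and Eno2, the neuronal enolase, had no probe set named for them in the annotation used.

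Nerve cells hold their axons open with neurofilaments, which are assembled from light, medium and heavy chains and from internexin alpha, and hold their dendrites in shape with microtubules that proteins such as Map2 stabilise. Uchl1 is a ubiquitin hydrolase that makes up a large share of the soluble protein of neurons, and Gap43 is a membrane protein of growing axon tips. None of these genes is a defining gene of brain endothelium.

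The samples were brain capillaries of stroke-prone spontaneously hypertensive rats (SHRSP), a strain with inherited high blood pressure, described in the labels as 6 weeks old. There were 6 arrays, 2 in each of 3 groups: control, ACEI (the angiotensin converting enzyme inhibitor lisinopril, 6 mg/kg per day) and ARB (the angiotensin receptor blocker olmesartan, 4 mg/kg per day by mouth). The shared label also lists 1% NaCl, and it does not say whether this was the control treatment or was given to all animals. Nor do the labels say how many animals gave RNA to an array, so p-values measure the spread between these arrays only.

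Depth is not defined for arrays, and 2 arrays per group limit the precision. The median intensity of an array lay between 244.9 and 493.8. The arrays differed in their dim signal: the 10th percentile of intensity was 66.8 and 74.7 on the ARB arrays and 15.4 to 28.6 on the other 4. The 3' to 5' ratio of the Gapdh control probe sets, which is raised by broken or partly copied RNA, was 7.31 on control 2 and 0.93 to 1.59 elsewhere; that of Actb was 3.15 on control 2 and 1.04 to 2.05 elsewhere. Control 1 and ACEI 1 shared a first run day and chip lot, and the other 4 arrays shared a later day and another lot. The array numbered 1 of each group had 1 fluidics protocol, and the array numbered 2 had another. Of the genes that mark brain capillaries, Slc2a1, the glucose transporter of the barrier, ranged from 27457 to 66763 on S68135_s_at, and on M13979_at from 13932 to 24417 on the control and ACEI arrays and from 4511 to 5105 on the ARB arrays. Pecam1, an endothelial junction molecule, ranged from 194 on control 2 to 5564 on ACEI 2.

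Groups were compared in limma on log2 of intensity plus an offset of 90, over the 5244 probe sets that remained once the dimmest 40% were set aside. Of the 16 probe sets 7 were tested, from 6 genes, and 9 lay below that filter. Differences are given as log2 differences ± SE on this scale, which understates the change of dim genes. RAS blockade stands for the mean of both drug groups.

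The RefSeq promoter table holds 4 of the 9 members, Uchl1, Ina, Map2 and Eno2. Those of 3 are shown, leaving out Eno2, which has no probe set here, to set Uchl1 and Ina, the 2 genes with the largest RAS blockade differences among the tested, beside Map2, whose tested probe set differed little. Each is the 120 bases before the annotated start, 5′ to 3′ on the gene's strand, in build GRCr8. They lie at chr14:41849418-41849537 (minus strand), chr1:255838009-255838128 (plus strand) and chr9:75346570-75346689 (plus strand). The Uchl1 window falls just inside its longer RefSeq gene record, whose upstream end is at 41849743. The Map2 window lies far inside its record (75173038 to 75431606), so it precedes an internal start. The Ina window ends where its gene record begins. Capitals mark the GC box letters GGGCGG and the letters TATAAA, on either strand.
Uchl1: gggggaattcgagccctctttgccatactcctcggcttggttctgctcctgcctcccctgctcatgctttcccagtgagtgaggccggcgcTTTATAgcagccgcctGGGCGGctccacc
Ina: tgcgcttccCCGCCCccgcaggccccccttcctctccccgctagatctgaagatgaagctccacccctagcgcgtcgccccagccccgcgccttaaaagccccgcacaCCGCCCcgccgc
Map2: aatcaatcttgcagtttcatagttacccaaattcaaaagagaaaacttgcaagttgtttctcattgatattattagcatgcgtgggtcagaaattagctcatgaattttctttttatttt

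Uchl1 held 1 GGGCGG, starting 13 bases before the start, and 1 TATAAA on the opposite strand, starting 29 bases before it. Ina held 2 GGGCGG, both on the opposite strand, and Map2 held neither motif. Of 33469 promoter windows of this length 23.7% held GGGCGG and 6.66% held TATAAA. The letters CCAAT (19.9% of windows) and CANNTG (39.4%), also searched on both strands, were found in none of these 3 windows. G and C made up 63.3% of the Uchl1 window, 72.5% of the Ina window and 30.0% of the Map2 window, against a median of 53.3%. These matches describe the sequence only.

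Uchl1 stood higher on every drug-treated array than on both controls, on 2 of its 3 probe sets. With probe set rc_AA859882_s_at the intensity was 409 and 588 on the controls, 955 and 1746 with ACEI, and 1873 and 1913 with ARB. The lowest treated array was thus above the higher control, and the groups did not overlap. With D10699_at it was 405 and 568 on the controls, 871 and 1433 with ACEI, and 1236 and 1492 with ARB. The order of the group means was control, ACEI, ARB on both probe sets.

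For RAS blockade versus control, Uchl1 was 2.85-fold higher on rc_AA859882_s_at (1.51 ± 0.42, 95% interval 0.55 to 2.48) and 2.32-fold higher on D10699_at (1.21 ± 0.41, interval 0.27 to 2.16), with 2 control and 4 treated arrays. Neither passed: with 5244 probe sets tested, limma gave both an adjusted p of 0.863. For ACEI versus control the differences were 1.25 ± 0.49 and 1.08 ± 0.48, each with an adjusted p of 0.992 in limma. For ARB versus control they were 1.77 ± 0.49 (adjusted p = 0.201 in limma) and 1.34 ± 0.48 (adjusted p = 0.238). ARB minus ACEI was 0.52 ± 0.49 with an interval of -0.60 to 1.63, and 0.26 ± 0.48 with an interval of -0.83 to 1.35, so ACEI and ARB were not told apart.

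For these 2 Uchl1 probe sets every difference from the control array of the same run day was above 0. The only control of the later day was control 2, whose Gapdh 3' to 5' ratio was 7.31, so the later-day differences from control rest on that array. ARB minus ACEI within the later day was 0.11 on rc_AA859882_s_at and -0.073 on D10699_at. On rc_AA859882_s_at, ACEI exceeded the control array of its own run day by 1.07 on the first day and by 1.44 on the later day, and ARB exceeded it by 1.55. On D10699_at the same differences were 0.96, 1.21 and 1.14. Leaving out any 1 array moved the RAS blockade difference of rc_AA859882_s_at to between 1.29 and 1.73 and that of D10699_at to between 1.01 and 1.42.

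The third Uchl1 probe set went another way for ARB. D10699_g_at, built from the same source sequence as D10699_at, read 74.2 and 36.5 on the controls, 301 and 528 with ACEI, but 41.5 and 97.2 with ARB. It lay below the filter, with ARB 1 below that array's 10th percentile of 66.8 and ARB 2 above its own of 74.7. Against the control of the same run day, ACEI 1 differed by 1.25, ACEI 2 by 2.29 and the mean of both ARB arrays by 0.31. In a fit without the filter, ACEI minus control was 1.77 ± 0.42 and ARB minus control was 0.12 ± 0.42. The probe sets of Uchl1 therefore disagreed on ARB, and ARB minus ACEI was -1.65 ± 0.42 here (adjusted p = 0.114 in limma).

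**Figure D1:**
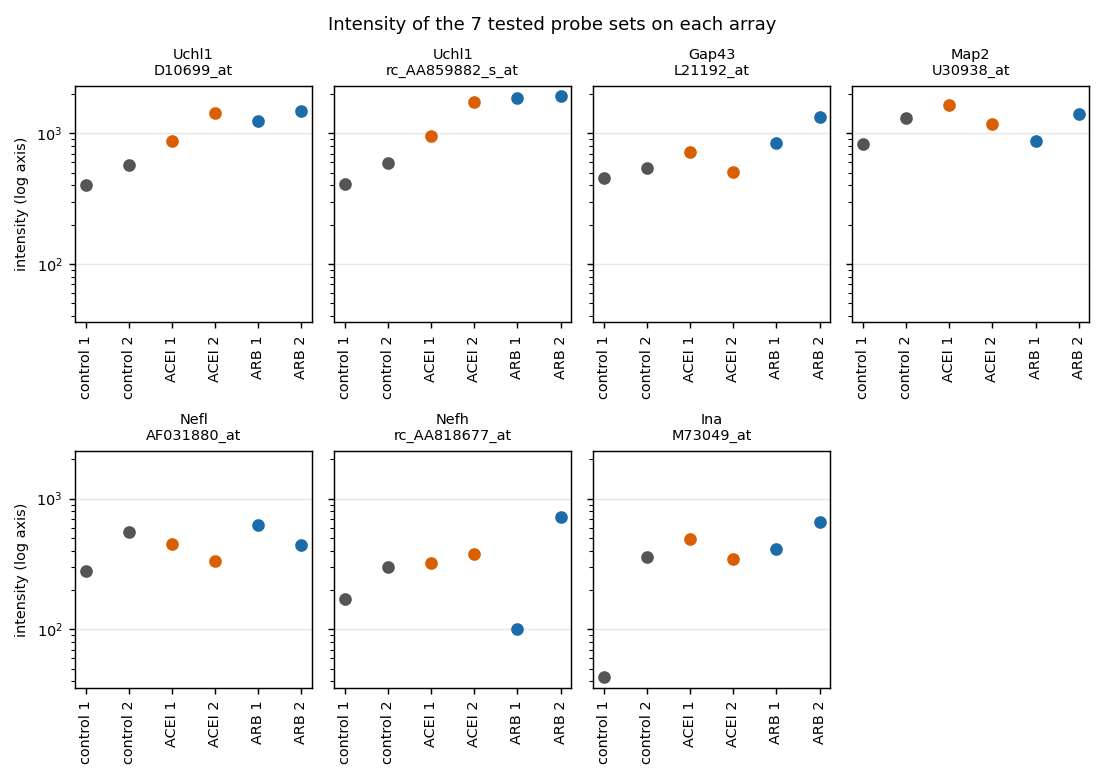
Intensity (log axis) of the 7 tested probe sets on each of the 6 arrays; each point is 1 array, grey for control, orange for ACEI and blue for ARB. Both Uchl1 panels have all 4 treated arrays above both controls, while the controls of Ina lie far apart at 43.2 and 355.

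Gap43, which steers the growth of axon tips, was highest with ARB. Its intensity was 456 and 541 on the controls, 725 and 504 with ACEI, and 839 and 1336 with ARB. The ARB arrays lay above all others, and the ACEI arrays overlapped the controls. Of all tested probe sets 33.4% had both ARB arrays above both controls. ARB versus control was 0.97 ± 0.47 (1.96-fold, adjusted p = 0.325 in limma), ACEI versus control 0.24 ± 0.47 and RAS blockade 0.61 ± 0.41. ARB minus ACEI was 0.73 ± 0.47, with an interval of -0.36 to 1.81. After quantile normalization, which gives all arrays the same distribution of intensities, ARB versus control was 0.60. Gap43 then read 493 and 689 on the controls, 720 and 624 with ACEI, and 697 and 1240 with ARB. ARB 1 was thus below ACEI 1, and only ARB 2 stood apart.

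Map2, the microtubule-associated protein of dendrites, was measured by 5 probe sets that did not act as one. The tested one, U30938_at, read 826 and 1309 on the controls, 1634 and 1183 with ACEI, and 876 and 1401 with ARB. All 3 groups overlapped. RAS blockade versus control was 0.24 ± 0.43 (interval -0.74 to 1.21, adjusted p = 0.940 in limma). Without control 1 this difference was -0.07, and within the later run day ACEI and ARB minus control were -0.14 and -0.22.

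The other 4 Map2 probe sets lay below the filter. S74265_s_at read 57.0 and 13.0 on the controls, 52.2 and 39.1 with ACEI, and 252 and 401 with ARB. On rc_AI228850_s_at the controls read 20.3 and 18.5, the ACEI arrays 14.7 and 10.1, and the ARB arrays 135 and 162. Both thus stood apart on the ARB arrays, above their 10th percentiles of 66.8 and 74.7. X53455cds_s_at (9.2 to 50.6) was below the 10th percentile of every array, and X17682_s_at (5.6 to 101) was below it on 4 of 6. In the fit without the filter, ARB versus control was 1.74 ± 0.40 for S74265_s_at (adjusted p = 0.137 in limma) and 1.12 ± 0.34 for rc_AI228850_s_at (adjusted p = 0.172). For ACEI they were 0.14 ± 0.40 and -0.10 ± 0.34.

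Ina, which encodes internexin alpha, had the largest RAS blockade difference among the neurofilament probe sets, and it was much smaller without control 1. M73049_at read 43.2 and 355 on the controls, 495 and 345 with ACEI, and 414 and 660 with ARB. Control 1 was far below all others, and ACEI 2 lay just under control 2. The mean log2 value was 7.93 on the controls, 8.98 with ACEI and 9.26 with ARB. With a filter threshold of 8.29, this probe set was tested only because of its treated arrays. RAS blockade versus control was 1.19 ± 0.55 (2.29-fold, adjusted p = 0.863 in limma), and it was 0.32 without control 1 and 2.06 without control 2. Against the control of the same run day, ACEI 1 differed by 2.13 and ACEI 2 by -0.03. The other Ina probe set, rc_AA875659_s_at, lay below the filter, at 57.5 and 40.7 on the controls, 67.4 and 50.1 with ACEI, and 111 and 92.0 with ARB. The ARB values stood beside 10th percentiles of 66.8 and 74.7. After quantile normalization it read 83.6 and 64.0 on the controls, 77.6 and 94.4 with ACEI, and 67.1 and 48.6 with ARB, so ARB was no longer higher.

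The light chain gene Nefl gave different pictures on its 2 probe sets. AF031880_at read 280 and 558 on the controls, 446 and 331 with ACEI, and 629 and 440 with ARB. These groups overlapped, with RAS blockade at 0.15 ± 0.43 (interval -0.83 to 1.13), at -0.26 without control 1 and at 0.55 without control 2. M25638_s_at, below the filter, read 20.0 and 21.9 on the controls, 31.8 and 36.0 with ACEI, and 112 and 470 with ARB. All treated arrays were above both controls there, with the ACEI values beside 10th percentiles of 28.6 and 15.4. ARB versus control was 1.60 ± 0.53 (adjusted p = 0.180 in limma, no filter), with the ARB arrays 1.47 apart from each other.

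The medium chain gene Nefm, on Z12152_at below the filter, read 17.9 and 159 on the controls, 436 and 132 with ACEI, and 89.3 and 172 with ARB. Groups overlapped, and ACEI 1 alone was high. Against the control of the same run day, ACEI 1 differed by 2.29 and ACEI 2 by -0.17.

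The heavy chain gene Nefh was tested on rc_AA818677_at, which read 170 and 298 on the controls, 322 and 380 with ACEI, and 101 and 724 with ARB. The ARB pair held both the lowest and the highest value, 2.09 apart on the log2 scale. RAS blockade versus control was 0.39 ± 0.59, and -0.13 without ARB 2. On X13804cds_at, below the filter, the controls read 47.2 and 156, the ACEI arrays 31.6 and 126, and the ARB arrays 544 and 441. There both ARB arrays lay above the rest, with ARB versus control at 1.66 ± 0.47 (adjusted p = 0.159 in limma, no filter) and ACEI at -0.18 ± 0.47.

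**Figure D2:**
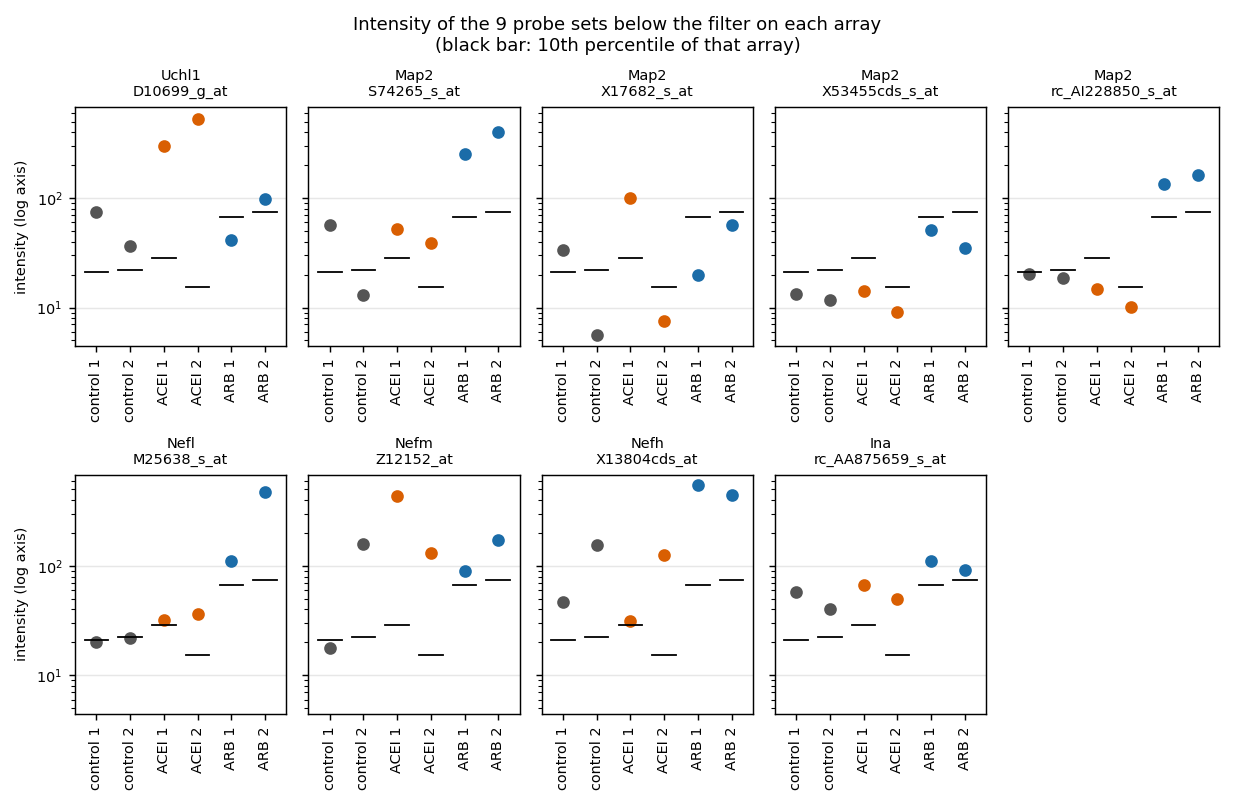
Intensity (log axis) of the 9 probe sets below the filter on each array, 1 point per array, with a black bar at that array's 10th percentile. On the ARB arrays the bars stand at 66.8 and 74.7, against 15.4 to 28.6 on the others, and 6 of the 9 panels have both ARB points above their bars.

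Counted over the 7 tested probe sets, 0 passed an adjusted p of 0.05 in limma in any of the 4 comparisons, as did 0% of all probe sets. At an unadjusted p under 0.05, 2 of 7 were higher for RAS blockade (3.05% of all tested), 1 of 7 for ACEI (1.2%) and 2 of 7 for ARB (12.6%), and each of these was a Uchl1 probe set. Differences above 0 were found for 7 of 7 with RAS blockade (59.6% of all tested), 6 of 7 with ACEI (46.9%) and 7 of 7 with ARB (58.1%). Among the 7, Ina M73049_at passed the filter only through its treated arrays, so its higher values there are no separate result.

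Groups that did not overlap, with the treated arrays higher, were found for 2 of 7 probe sets with RAS blockade (4.63% of all tested), 3 of 7 with ACEI (11.6%) and 4 of 7 with ARB (33.4%). Between the drugs, ARB was above ACEI without overlap for 2 of 7 (37.1%). Below the filter the same held for 1 of 9 with RAS blockade (9.1% of all probe sets below it), 2 of 9 with ACEI (11.5%), 6 of 9 with ARB (59.7%) and 6 of 9 for ARB above ACEI (61.4%). The shares for ARB below the filter were thus near those of all dim probe sets. The median difference of the 7 was 0.61 for RAS blockade, 0.47 for ACEI and 0.97 for ARB, beside 0.13, -0.04 and 0.18 over all tested probe sets. Over all 16 without a filter it was 0.67, 0.29 and 0.72, beside 0.22, -0.03 and 0.43. Because 3 of the 7 come from Uchl1 and Ina, whose differences exceeded 1, the medians describe a mixed set. ACEI and ARB were set against the same 2 control arrays.

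**Figure D3:**
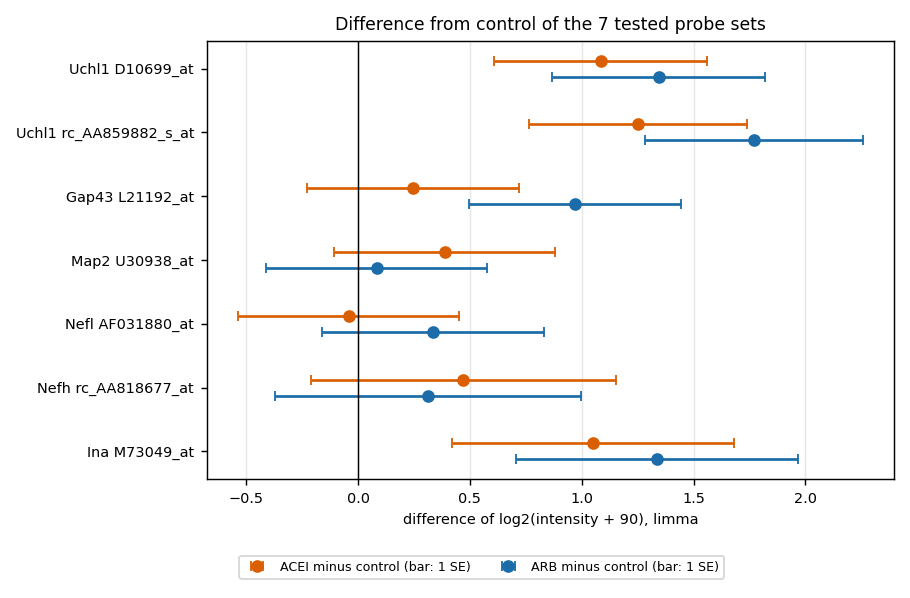
Difference from control of log2(intensity + 90) for the 7 tested probe sets, with 1 SE of the limma model, for ACEI (orange) and ARB (blue), 2 arrays per group. The Uchl1 probe sets lie between 1.08 and 1.77, and Map2, Nefl and Nefh have both bars crossing 0.

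**Figure D4:**
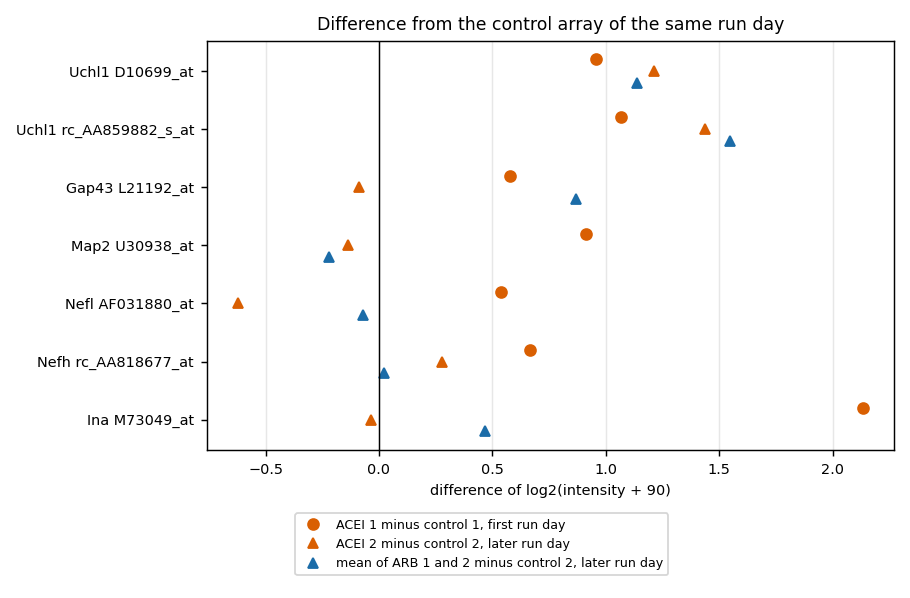
Difference of log2(intensity + 90) from the control array of the same run day for the 7 tested probe sets; circles are the first run day, triangles the later one, orange ACEI and blue ARB. In 2 of the 3 positions Map2 and Nefl lie below 0, while every Uchl1 point lies between 0.96 and 1.55.

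Genes that work with the members gave a mixed picture. Of 38 listed microtubule proteins and motors 21 had a probe set. With RAS blockade 19 of 23 tested probe sets were higher (median 0.19), beside 59.6% of all tested (median 0.13). At an unadjusted p under 0.05 in limma 2 were higher, beside 3.05% of all tested. Map1a, a microtubule-associated protein of mature neurons, read 852 and 770 on the controls, 1342 and 1425 with ACEI, and 2526 and 2296 with ARB. Its difference was 1.09 ± 0.38, with all treated arrays above both controls, as for 4.63% of all tested. A second, dim probe set read 38.3 to 422. Mapt, the axonal protein tau, was at 1.32 ± 0.53, 0.63 ± 0.45 and 0.18 ± 0.38 on its 3 tested probe sets. All 3 Map1b probe sets, for a microtubule-associated protein of growing axons, lay below the filter (5.8 to 75.2), as did the growth cone protein genes Dpysl2 and Dpysl3. Stmn1, the common stathmin, was at -0.26 ± 0.43.

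Of the growth cone, axon membrane and cortical skeleton list, 19 of 23 tested probe sets were higher with RAS blockade (median 0.45). Among all tested probe sets 59.6% were higher (median 0.13). In this list 0 had an unadjusted p under 0.05 in limma. Thy1, a surface protein of neurons, read 3199 and 6064 on the controls and 6298 to 8520 on the treated arrays (0.74 ± 0.43), while its other probe set was at 0.30 ± 0.48, with the ARB arrays (54.7 and 223) below the ACEI arrays (636 and 814). Basp1, a growth cone protein with properties like those of Gap43, was at 0.33 ± 0.45 and the axonal adhesion molecule L1cam at 0.05 ± 0.39.

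Of the intermediate filament genes outside the members, 2 of 6 tested probe sets were higher with RAS blockade and 4 lower (median -0.17). For this and the following lists, the share of all tested probe sets that were higher was 59.6% (median 0.13). Vim, the vimentin of vessel wall cells, read 9125 and 17205 on the controls and 6717 to 10515 on the treated arrays (-0.54 ± 0.42), and the nestin gene Nes was at 0.66 ± 0.49. Prph, a neurofilament-like protein of peripheral neurons, lay below the filter (71.6 to 437), and Gfap had no probe set named for it. Of the enolases, Eno1, the form found in most cells, was at -0.37 ± 0.42 and -0.77 ± 0.47 on its 2 probe sets, and 10 of 13 probe sets of the glycolysis list were lower (median -0.19). Eno3, the muscle enolase, lay below the filter (8.8 to 139). Of the ubiquitin list 1 of 9 genes was measured, the proteasome subunit Psmd4, with 3 of 3 probe sets higher (median 0.31). In these 5 lists 0 probe sets passed an adjusted p of 0.05 in limma for any comparison.

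**Figure D5:**
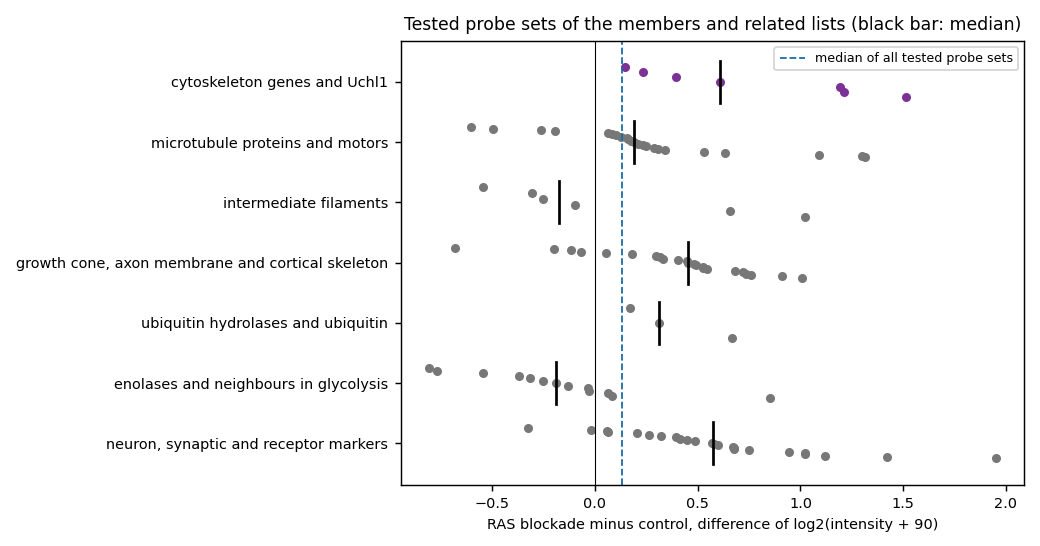
RAS blockade minus control, as a difference of log2(intensity + 90), for each tested probe set (points) of the members and of 6 lists, with the list median (black bar) and the median of all tested probe sets (dashed line, 0.13). The members' median of 0.61 and that of the synaptic and receptor list, 0.57, are the largest, and the intermediate filament and glycolysis medians lie below 0.

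The genes whose profile over the 6 arrays was nearest to Uchl1 rc_AA859882_s_at were found by the root mean square difference of centred log2 values among 4308 named probe sets, whose median distance was 0.94. They were Dnm1, the neuronal dynamin of vesicle uptake (0.23), Camkv, a kinase-like protein of vesicles (0.24), Dbn1, the actin-binding protein drebrin of dendritic spines (0.29), Amigo1, a neuronal adhesion protein (0.29), and Reep2, a protein that shapes the endoplasmic reticulum (0.32). Dnm1, for example, read 1458 and 2495 on the controls, 2357 and 4440 with ACEI, and 5591 and 5976 with ARB. Dbn1 was near on X59267_at only. Its other tested probe set, AB015042_s_at, read 262 and 305 on the controls, 384 and 293 with ACEI, and 245 and 93.0 with ARB. The other Uchl1 probe set D10699_at was at 0.19, Ina M73049_at at 0.57 and Gap43 at 0.60. Map2 U30938_at was at 0.80, and Uchl1 D10699_g_at at 0.96 was farther than the median. Nearest to the mean profile of the 7 tested probe sets were Lta4h (0.09), Tyro3 (0.16), Thy1 (0.16), Pcyt2 (0.16) and Cacna2d1 (0.18). On that mean profile control 1 was lowest at -0.85, control 2 at -0.16, and ARB 2 highest at 0.64 (log2 units from the mean of all arrays).

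Markers of other cells moved with the groups too. Neuronal synaptic and receptor markers, without the members, were higher for 22 of 24 tested probe sets with RAS blockade (median 0.57). Among all tested probe sets the share was 59.6% and the median 0.13. The summed intensity of all 55 neuronal probe sets was 24591 and 31828 on the controls, 29587 to 31621 on the ACEI arrays and 44313 to 48047 with ARB. Snap25, a protein of vesicle fusion, read 345 and 299 on the controls, 630 and 457 with ACEI, and 908 and 1141 on ARB (1.02 ± 0.39), and its other 3 probe sets lay below the filter. Endothelial markers were higher for 11 of 23 tested probe sets with RAS blockade (median -0.09). With ACEI 17 of 23 were higher (median 0.42), beside 46.9% of all tested (median -0.04). With ARB 6 of 23 were higher (median -0.37), beside 58.1% (median 0.18). The endothelial sums were 127293 and 212397 on the controls, 122486 to 144585 on ACEI and 96618 to 107059 on ARB. Most of the control 2 sum came from Slco1a4 (79016), Slc2a1 S68135_s_at (66763) and Alpl J03572_i_at (42808).

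The sum of the astrocyte list, most of it from Glul, was 52937 to 68884 on the controls, 75837 to 90761 on ACEI and 23564 to 25004 on ARB. The oligodendrocyte list summed to 12998 to 23911, 27616 to 30326 and 10359 to 10846 in the same order. The microglia list summed to 37321 to 59571, 29509 to 66331 and 17744 to 18108, and the pericyte and smooth muscle list to 51502 to 51853, 33282 to 36993 and 27601 to 31657. Of the tested astrocyte probe sets 12 of 13 were higher with ACEI (median 0.64) and 4 of 13 with ARB (median -0.56). Slc1a2 U15098_at was among those higher with ARB (1.31 ± 0.52). For oligodendrocytes, microglia and the pericyte list, 10 of 12, 9 of 14 and 7 of 16 were higher with ACEI. With ARB these were 2 of 12, 3 of 14 and 3 of 16. The shares over all tested probe sets were 46.9% with ACEI and 58.1% with ARB. The erythroid and blood list had 5 of 5 probe sets lower with RAS blockade (median -2.11), 3 of them at an unadjusted p under 0.05 and 0 at an adjusted one in limma. Among all tested probe sets 59.6% were higher (median 0.13), and 5.07% had an unadjusted p under 0.05 in limma in either direction. Alas2, an enzyme of haem synthesis in red cell precursors, was at -2.12 ± 0.52, and the neutrophil genes S100a9 and S100a8 at -2.11 ± 0.50 and -2.17 ± 0.51. Each had all treated arrays below both controls, as did 3.72% of all tested probe sets. The sum of the erythroid and blood list was 40328 and 108896 on the controls and 39989 to 50861 on the treated arrays, most of it from the globin gene Hbb. Choroid plexus markers summed to 61444 and 172699 on the controls, 77772 to 78804 on ACEI and 412968 to 437018 on ARB, most of the ARB sum coming from the carrier protein gene Ttr, whose probe sets read 194512 and 202386 on ARB 1 and 217986 and 201474 on ARB 2. Of the probe sets in these lists 0 read 0 on any array. The part that these cell markers had in the members' differences was not tested, and fewer cells of a type and less RNA per cell cannot be told apart in bulk RNA.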

How the data were processed

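The deposited table gave 1 intensity per probe set and array on a linear scale, with none below 0 and no detection calls; the authors' values had a trimmed mean near 1000 on every array (996.7 to 1001). The software, background correction and scaling are not given in the sources used here. Run day, chip lot and fluidics protocol were read from the deposited run files, per the file headers, which hold other text settings as well.

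Of 8799 probe sets 7018 carried 1 gene symbol, 308 several and 1473 none, and only the first were named. The 59 control probe sets were left out. Intensities were taken as log2 of the value plus 90 (the median of values above 0, 358.3, divided by 4, rounded), with no further normalization. Filtering out the dimmest 40% by mean log2 value left 5244. Limma 3.58.1 in R 4.3.3 fitted 1 mean per group, using eBayes (residual degrees of freedom 3, prior 5.49), two-sided, with Benjamini-Hochberg adjustment. The fit was tested on simulated data. Figures used Python 3.11.15 and matplotlib 3.10.9.

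The members and gene lists were chosen with earlier results of these data known. Every member probe set is named; from the related lists a fixed set of genes is named, with the 5 nearest profiles. Psmd4, Snap25, Slc2a1, Pecam1, Slco1a4, Alpl, Glul, Slc1a2, Ttr, Alas2, S100a8, S100a9 and Hbb were named after their values were seen. Alternatives were the offset, filter, normalization, replicate number and run day as blocks, the later run day alone, only the groups compared, and each array left out. The first run day alone was added after seeing the data.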

Additional observations from a re-analysis of the deposited data

Results flagged for a closer look

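Map2 rc_AI228850_s_at, which lay below the filter, was lower on both ACEI arrays (14.7 and 10.1) than on both controls (20.3 and 18.5) and higher on both ARB arrays (135 and 162). It is listed because every array of one drug group moved one way and every array of the other the opposite way. Each control and ACEI value lay below the 10th percentile of its own array, 21.1 and 22.2 for the controls and 28.6 and 15.4 for ACEI. ACEI minus control was -0.10 ± 0.34, so the lower ACEI values are a small difference among dim readings. ARB minus ACEI was 1.22 ± 0.34 in limma without the filter (adjusted p = 0.123), so this difference between the drugs did not pass. The 10th percentile of intensity was 66.8 and 74.7 on the ARB arrays and 15.4 to 28.6 on the others, and its part in the difference was not tested. Of all probe sets below the filter 61.4% had both ARB arrays above both ACEI arrays, and 14.4% had both ACEI arrays below both controls.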

How the results depend on the processing

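In all 4 comparisons and under every alternative that gave a test, 0 member probe sets passed the adjusted threshold. Of 436 values of single probe sets under an alternative, 400 kept their sign and 36 changed it, 9 of them with 1 run day alone, which gives no test; 0 of the sign changes concerned Uchl1 against control. With the later day alone these were Nefl (RAS blockade -0.35, ARB -0.070), Map2 U30938_at (-0.18, ACEI -0.14, ARB -0.22), Ina (ACEI -0.034), Gap43 (ACEI -0.088) and Uchl1 D10699_at (ARB minus ACEI -0.073), and with the first day alone Nefl (ACEI 0.54). The cause was not tested.

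The members' median moved from 0.61 to 0.22 (RAS blockade), 0.47 to -0.034 (ACEI) and 0.97 to 0.47 (ARB) with the later run day alone, and to 0.91 (ACEI) with the first alone. It was 0.60 for ARB after quantile normalization, and -0.15 and -0.12 for ARB minus ACEI after quantile and cyclic loess normalization, against 0.29. With 1 array left out the median ran from 0.32 (without control 1) to 0.92 (without ARB 1) for RAS blockade, from 0.18 (without control 1) to 0.76 (without control 2) for ACEI, from 0.47 (without control 1) to 1.36 (without ARB 1) for ARB, and from 0.11 (without ACEI 1) to 0.53 (without ARB 1) for ARB minus ACEI, where it was 0.13 without ARB 2.

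After quantile and cyclic loess normalization Nefl AF031880_at was at -0.17 and -0.11 for RAS blockade, -0.24 and -0.17 for ARB, and -0.15 and -0.12 for ARB minus ACEI. For ARB, Nefh rc_AA818677_at was at -0.29 and -0.32 and Map2 U30938_at at -0.16 and -0.035. Ina M73049_at, ARB minus ACEI, was at -0.24 and -0.31. A block for run day put it at -0.042, and Uchl1 D10699_at at -0.0097.

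With 1 array left out, ranges that crossed 0 were, for RAS blockade, Nefl -0.26 to 0.55, Map2 -0.069 to 0.54 and Nefh -0.13 to 0.92. For ACEI, Nefl ran from -0.45 to 0.36. For ARB, Nefl ran from -0.070 to 0.74, Map2 from -0.23 to 0.40 and Nefh from -0.73 to 1.36. For ARB minus ACEI, Uchl1 D10699_at ran from -0.073 to 0.59, Nefh from -1.20 to 0.89, Map2 from -0.62 to 0.0095 and Ina from -0.0018 to 0.57. A group with 1 array left was assumed to vary like the others.

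Same-numbered arrays shared a fluidics protocol, so the replicate block was also a block for that protocol. Over the tested probe sets, deviations of same-numbered arrays from their group means correlated at 0.045, -0.015 and -0.0037. With the replicate block the members' medians stayed at 0.61, 0.47, 0.97 and 0.29, and 0 members were called under it. Over the whole array 0 were called in each comparison (RAS blockade, ACEI, ARB, ARB minus ACEI) in the main fit. In that order the replicate block called 3, 2, 4 and 1, and an offset equal to the median 3, 3, 4 and 4. Quantile and cyclic loess normalization called 1 each for RAS blockade, and the drug groups alone called 305 for ARB minus ACEI. Across these settings 0 members were called. Leaving out a control array also changed the counts, which then rest on 1 control array and are not given. With either control left out, the other adds nothing to the spread, so ARB minus ACEI is the same fit as the drug groups alone. Dim signal limits the 9 probe sets below the filter, some of which lay near the 10th percentile on several arrays. Others stood well above it on some arrays. Examples are Nefh X13804cds_at at 544 and 441 with ARB, and Uchl1 D10699_g_at at 301 and 528 with ACEI.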
